A study of Mus musculus with 3 samples.

Results

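The genes described here are 8 genes of inhibitory signalling between immune cells, *Cd274*, *Pdcd1lg2*, *Cd200*, *Pvr*, *Nectin2*, *Lgals9*, *Havcr2* and *Vsir*, out of 32285 genes in the count matrices. They were chosen by name as ligands and receptors of checkpoint pathways, with earlier results of these data known, and all 8 had UMIs in the cDC1s. Counts and medians of the members set beside all genes therefore describe this list and do not test it. Their raw UMI counts were taken from the 3 libraries by genotype, by the clusters 0 to 11 of the deposited cDC1 table, and in the barcodes outside that table that carried the cDC2 marker *Cd209a* or the macrophage marker *C1qa*. All levels are in CPM, that is, relative to the total UMI count of the summed cells.

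Checkpoint ligands bind receptors on T cells, NK cells or myeloid cells and dampen their activation, which limits tissue damage and can also limit immunity to tumours. *Cd274* and *Pdcd1lg2* encode PD-L1 and PD-L2, the ligands of PD-1 on T cells, and *Cd200* encodes a membrane ligand of the CD200 receptor on myeloid cells. *Pvr* and *Nectin2* encode adhesion proteins that bind the inhibitory receptor TIGIT and the activating receptor CD226. *Lgals9* encodes the secreted lectin galectin-9, for which TIM-3, the product of *Havcr2*, is a described receptor, and TIM-3 is carried by cDC1s. *Vsir* encodes VISTA, a protein of the B7 family on myeloid and T cells that has been described both as a ligand and as a receptor. Among cDCs, cells that carry *Ccr7*, the receptor for migration to lymph nodes, are known to hold high levels of both inhibitory and stimulatory ligands, and *Cxcl9* encodes a chemokine induced by interferon-γ that attracts T cells.

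The cells came from tumours of MCA205 LA-OVA, a fibrosarcoma line carrying OVA that is grafted into mice, taken after 5 days. Precursors of cDCs, cDC1s and cDC2s were sorted and combined at 1:1:2 before droplet-based scRNAseq. One library was made for each genotype from pooled mice aged 6 to 20 weeks that had been co-housed for more than 3 weeks. For WT 37 mice were pooled (25 male, 12 female), for *sGsn-/-*, which lacks secreted gelsolin, 31 (15 male, 16 female), and for *sGsn-/- Clec9a-/-*, which also lacks the receptor DNGR-1 encoded by *Clec9a*, 27 (10 male, 17 female). No genotype had a replicate library, so differences between genotypes carry no test here, and an SD over the 3 libraries includes the differences between genotypes.

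The WT matrix held 12763 barcodes with 176578136 UMIs, the *sGsn-/-* matrix 8173 barcodes with 109270958 UMIs, and the *sGsn-/- Clec9a-/-* matrix 9273 barcodes with 113411930 UMIs. The table listed 2316, 1712 and 1778 of them as cDC1s, in the same order, and their median UMI counts were 14092, 14150 and 12231. Between 26 and 28 barcode sequences occurred in both libraries of a pair, 2 or 3 of them in the table each time, and these were counted as separate cells. *Clec9a* had 5502 and 3970 UMIs (168 CPM in each) in the cDC1s of the WT and *sGsn-/-* libraries and 2 UMIs (0.0931 CPM) in those of the *sGsn-/- Clec9a-/-* library, as its label states. *Gsn* was at 152, 169 and 167 CPM in the cDC1s of the 3 libraries, so the gene-level count does not show the lack of secreted gelsolin. Over all cDC1s the counts behind the values below were 1984 UMIs of *Cd274*, 518 of *Pdcd1lg2*, 1494 of *Cd200*, 3287 of *Pvr*, 58 of *Nectin2*, 5246 of *Lgals9*, 11830 of *Havcr2* and 3417 of *Vsir*. *Nectin2* was thus the gene with the widest counting error. *Cd274*, *Pdcd1lg2*, *Pvr*, *Nectin2* and *Vsir* overlap genes on the other strand, pairs that only strand tells apart, and the sources at hand do not say how strand was set in counting.

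Across the deposited clusters the 8 genes fell into different patterns. *Cd274* and *Pdcd1lg2* were high in clusters 8 and 10 and low in the others, *Cd200* and *Nectin2* were highest in cluster 8, *Lgals9* in cluster 7, and *Havcr2* and *Vsir* had their lowest mean levels in cluster 8, though not in every library. Cluster 8 (255 cells, 84, 114 and 57 in the WT, *sGsn-/-* and *sGsn-/- Clec9a-/-* libraries) is the cluster of *Ccr7* cells, and cluster 10 (76 cells, 21, 27 and 28) that of the highest *Cxcl9* counts. The clusters were called on all genes, these 8 included, so their levels are a description without a test.

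*Cd274* (ENSMUSG00000016496, chr19:29367455-29388095, + strand) reached 327, 372 and 223 CPM in the cells of cluster 8 (WT, *sGsn-/-* and *sGsn-/- Clec9a-/-* libraries), while those of cluster 10 had 234, 245 and 308 CPM. The ranges of both clusters overlapped, and each library of either lay above every library of the other 10 clusters. Cluster 7 followed with 27.9 ± 5.39 CPM (SD, n = 3), apart from cluster 11, whose cells had a median of only 2348 UMIs, and cluster 2 was the lowest with 3.87 ± 0.875 CPM. *Pdcd1lg2* (ENSMUSG00000016498, chr19:29410919-29471161, + strand) starts 22823 bases after the end of *Cd274* and ordered the top clusters alike, with 113, 124 and 50.5 CPM in cluster 8, followed by 60.2, 90.2 and 30.1 CPM in cluster 10. The next cluster in its order, cluster 5, had 4.21 ± 1.22 CPM. In cluster 8, which held 4.39% of the cDC1s and 3.63% of their UMIs, lay 46.6% of all *Cd274* UMIs and 57.9% of all *Pdcd1lg2* UMIs of the table.

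*Cd200* (ENSMUSG00000022661, chr16:45382135-45409053, − strand) separated clusters 8 and 10. Cluster 8 had 271, 242 and 111 CPM, above every library of every other cluster. Cluster 10 had 14.2, 45.1 and 0 CPM, where the count of 0 in the *sGsn-/- Clec9a-/-* library allows up to 12.3 CPM. The mean of the cDC1s outside clusters 8 and 10 was 11.2 CPM, so that cluster 8 was 18.6-fold and cluster 10 1.77-fold above it, and the ranges of cluster 10 and the next clusters overlapped. Without the *sGsn-/-* library the level in cluster 10 was 7.09 CPM, below the other cDC1s. *Nectin2* (ENSMUSG00000062300, chr7:19716644-19750483, − strand) had 17, 18 and 3 UMIs in cluster 8 in the same order of libraries, equal to 16.5, 14.2 and 5.82 CPM, with a mean of 12.2 CPM, or 20.2 CPM in thinned cells. These made up 65.5% of its UMIs in the table, and in cluster 10 its range of 0 to 6.69 CPM overlapped that of cluster 8. *Pvr* (ENSMUSG00000040511, chr7:19903578-19921160, − strand), the relative of *Nectin2* with a wider distribution, had 112, 109 and 89.3 CPM in cluster 8, against 51.1 ± 8.17 CPM in cluster 6, the next cluster with more than the 19 UMIs found in cluster 11. Cluster 10 was not raised for *Pvr*, with 35.2 ± 16.7 CPM against 39.8 CPM in the cells outside both clusters.

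*Lgals9* (ENSMUSG00000001123, chr11:78962974-78984946, − strand) marked another cluster. Cluster 7, with 422 cells, had 207, 198 and 215 CPM in the 3 libraries, and clusters 10 and 6 followed with 81.9 ± 10.3 and 76.7 ± 2.87 CPM. All 3 libraries of cluster 7 lay above those of any other cluster, while clusters 10 and 6 overlapped. The lowest mean, 41.1 ± 5.82 CPM, was in cluster 8 and overlapped that of cluster 3, the neighbour in the order. *Havcr2* (ENSMUSG00000020399, chr11:46454935-46481255, + strand) had 197 ± 18.2, 191 ± 10.98 and 190.0 ± 20.3 CPM in clusters 6, 1 and 0, which did not differ beyond their spread, and 83.9 ± 38.3 CPM in cluster 8, the lowest mean. The cluster 8 range, 60.6 to 128 CPM, overlapped that of cluster 4, the neighbour in the order, at 87.3 to 101 CPM. The *Havcr2* level of 376 ± 73.1 CPM in cluster 11 rests on 56 UMIs in 60 shallow cells. *Vsir* (ENSMUSG00000020101, chr10:60346851-60372684, + strand) was at 65.8 ± 2.24 CPM in cluster 6 and 61.3 ± 1.86 CPM in cluster 2, whose libraries did not overlap with each other or with those of cluster 3 at 51.8 ± 2.72 CPM, while cluster 9 at 50.5 ± 16.1 CPM spread across them. Clusters 10 and 8 had the lowest *Vsir* means, 27.7 ± 18.3 and 24.7 ± 7.36 CPM, and overlapped, the latter being 11.8 CPM in cells thinned to 4000 UMIs. Without the *sGsn-/-* library cluster 10 was at 17.3 CPM and cluster 8 at 27.6 CPM, so their order turned on that library.

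**Figure D1:**
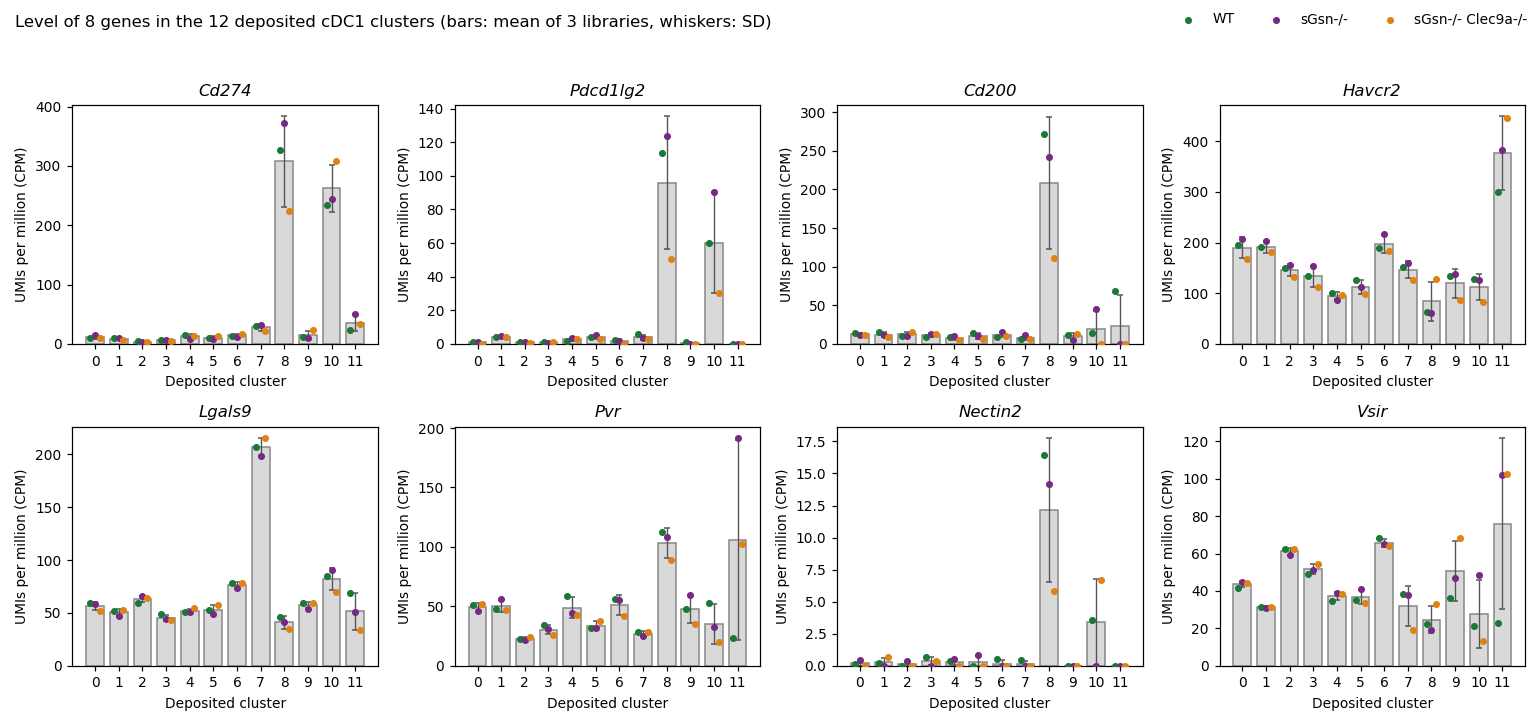
Levels of the 8 genes (y axis, CPM) in the 12 deposited cDC1 clusters (x axis), with bars for the mean of 3 libraries, whiskers for the SD and points for the WT, *sGsn-/-* and *sGsn-/- Clec9a-/-* libraries. *Cd274* and *Pdcd1lg2* stand high in clusters 8 and 10, *Cd200* in cluster 8, and *Lgals9* in cluster 7, where the libraries lie between 198 and 215 CPM.

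Detection in single cells followed the summed levels. After thinning each cell to 4000 UMIs, *Cd274* was found in 61.7% of the cells of cluster 8 (exact 95% interval 54.5 to 68.6%, 75.3% before thinning) and 52.9% of those of cluster 10 (40.6 to 64.9%, 80.3% before thinning), against 3.60% (3.12 to 4.14%, 9.99% before thinning) in the cDC1s outside both. *Pdcd1lg2* was found in 28.6% (22.4 to 35.4%, 44.7% before thinning), 17.1% (9.18 to 28.0%, 31.6% before thinning) and 0.801% (0.578 to 1.08%, 2.56% before thinning) of the same groups. *Cd200* was found in 41.3% (34.4 to 48.6%, 51.4% before thinning), 5.71% (1.58 to 13.99%, 14.5% before thinning) and 4.004% (3.49 to 4.57%, 11.9% before thinning). Thinning left out 59, 6 and 230 cells, and the median depths were 10867, 11132.5 and 13592 UMIs. Free RNA can give a UMI in any cell, and *Ncr1* barcodes, which carry NK cell markers, had *Cd200* in 0.116% of cells at a median of 10338 UMIs, below all 3 groups. For *Cd274* and *Pdcd1lg2* the *Ncr1* barcodes are no such background, since 13.6% and 21.3% of them held a UMI after thinning. Among the marker populations the lowest shares were those of the *C1qa* barcodes, 3.09% (2.52 to 3.75%) for *Cd274* and 0.820% (0.536 to 1.20%) for *Pdcd1lg2* at a median of 15649 UMIs, and the cDC1s outside clusters 8 and 10 overlapped both.

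Within cluster 8 the ligands were partly found in the same cells. Of the 196 cells with at least 4000 UMIs, 43 had both *Cd274* and *Pdcd1lg2* after thinning, 78 only *Cd274*, 13 only *Pdcd1lg2* and 62 neither, so that *Pdcd1lg2* was found in 35.5% of the cells with *Cd274* and 17.3% of those without. *Cd200* was found in 51.2% of the cells with *Cd274* and 25.3% of the rest. In cluster 10, 9 of 70 cells had *Cd274* and *Pdcd1lg2*, and *Cd200* was found in 5.41% of the cells with *Cd274* and 6.06% of those without. These shares were looked at after the levels had been seen and describe single cells of 3 libraries, which are no replicates.

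To test the members on groups that did not use their counts, the cDC1s of the table were divided by *Ccr7* and *Cxcl9*. *Ccr7* cDC1s had at least 3 UMIs of *Ccr7* and fewer than 3 of *Cxcl9* (154 cells, 55, 73 and 26 in the WT, *sGsn-/-* and *sGsn-/- Clec9a-/-* libraries), *Cxcl9* cDC1s the reverse (330 cells, 123, 112 and 95), and 5281 cells had fewer than 3 of each. Of the *Ccr7* cDC1s 147 belonged to cluster 8, while the *Cxcl9* cDC1s were spread over clusters 7 (92 cells), 10 (67 cells), 9 (55 cells) and others. The 41 cells with at least 3 UMIs of each gene were left out of the tests, and 37 of them were in cluster 8. The 3 comparisons share these groups. All of them used sums per library, the quasi-likelihood test of edgeR and Benjamini-Hochberg adjustment over all genes tested, so that n is 3 sums per group. The p-values rest on the spread within groups between 3 libraries of different genotypes, with dispersion moderated across genes. They do not measure the spread of replicates of a genotype, and the main fit left out the pairing of sums within a library.

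*Ccr7* cDC1s held far more of the ligands for T cell and myeloid receptors than the cDC1s with neither gene, and less *Havcr2*, *Lgals9* and *Vsir*. *Cd274*, *Pdcd1lg2*, *Cd200*, *Pvr* and *Nectin2* rose, 5 of 8 members where 19.8% of the 10835 genes tested were called higher, and *Havcr2*, *Lgals9* and *Vsir* fell, 3 of 8 where 21.6% were called lower. The median log2 fold change was 3.23 over the members and −0.13 over all genes tested. *Nectin2* passed the filter on low counts only through the *Ccr7* group, which favours a difference. Without it 4 of 7 members were called higher and 3 lower, and their median was 1.60. In the WT, *sGsn-/-* and *sGsn-/- Clec9a-/-* libraries *Cd274* was at 368, 388 and 260.4 CPM in *Ccr7* cDC1s and at 9.66, 10.4 and 10.5 CPM in the cells with neither gene. *Pdcd1lg2* was at 128, 153 and 46.5 CPM against 2.28, 2.76 and 2.02 CPM, and *Cd200* at 355, 299 and 195 CPM against 11.7, 11.4 and 10.5 CPM. The groups did not overlap for any of these ligands, and the *sGsn-/- Clec9a-/-* library was the lowest of the *Ccr7* group each time. The log2 fold changes were 5.23 for *Cd274*, 5.85 for *Pdcd1lg2* and 4.85 for *Cd200* (edgeR, Benjamini-Hochberg adjusted p = 9.42e-19, 5.9e-15 and 9.7e-18, higher in 3 of 3 libraries). With groups set at 1 UMI they were 4.64, 5.11 and 4.20.

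*Pvr* was at 117, 111 and 107 CPM in *Ccr7* cDC1s and 41.2, 40.4 and 38.7 CPM in the cells with neither gene, in the same order of libraries. Both sets of libraries were tight and well apart, and the log2 fold change was 1.60 (edgeR, Benjamini-Hochberg adjusted p = 3.42e-10, higher in 3 of 3 libraries). *Nectin2* had 21 UMIs in *Ccr7* cDC1s and 17 in the far larger group with neither gene, a ratio of 49.2 in CPM with a counting interval of 24.7 to 99.4. *Havcr2*, the TIM-3 gene, was at 46.4, 33.5 and 23.2 CPM in *Ccr7* cDC1s against 159, 167 and 141 CPM, and *Lgals9* at 33.7, 31.1 and 18.6 CPM against 65.2, 63.0 and 64.1 CPM. The groups were again apart in every library for these genes, with log2 fold changes of −1.96 and −0.96 (edgeR, Benjamini-Hochberg adjusted p = 2.33e-09 and 0.000144, lower in 3 of 3 libraries). That of *Havcr2* depended on the *Ccr7* minimum, being −0.75 at 1 UMI and −2.56 at 5 UMIs. *Vsir* was at 28.1, 21.5 and 41.8 CPM against 45.0, 45.4 and 45.2 CPM, close to the other group in the *sGsn-/- Clec9a-/-* library. Its log2 fold change of −0.65 was called (edgeR, Benjamini-Hochberg adjusted p = 0.0109, lower in 3 of 3 libraries), but the call was lost without the *sGsn-/-* library (−0.44, adjusted p = 0.213), the highest adjusted p over its alternatives, of which the lowest was 0.00193.

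The *Ccr7* cDC1s of the WT library also carried markers of macrophages. The 8 of 8 macrophage markers with UMIs in the group summed to 732 CPM in the WT library and to 61.0 and 46.5 CPM in the *sGsn-/-* and *sGsn-/- Clec9a-/-* libraries, with *Apoe* the most abundant at a mean of 112 CPM and none at 0. Without the cells that had at least 3 UMIs of *Cd209a*, *C1qa*, *Ncr1*, *Cd3e* or *Siglech*, the log2 fold changes were 5.28 for *Cd274*, 5.89 for *Pdcd1lg2* and 4.88 for *Cd200*, and without the WT library 5.15, 5.80 and 4.71, and the part of the macrophage markers was not tested further. Across scalings the median log2 fold change of all genes in this comparison was −0.23 without TMM factors and 0.50 with DESeq2, and no member changed its sign under either.

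*Cxcl9* cDC1s shared some of these features and lacked others. *Cd274*, *Pdcd1lg2* and *Lgals9* rose relative to the cells with neither gene, 3 of 7 members tested where 7.44% of the 10782 genes tested were called higher, and none was called lower, where 2.32% were (250 genes, between 64 and 121 with 1 library left out). *Nectin2* had too few counts to be tested. The median log2 fold change was 0.36 over the members and −0.02 over all genes tested. *Cd274* was at 73.1, 69.5 and 102 CPM in the WT, *sGsn-/-* and *sGsn-/- Clec9a-/-* libraries of this group, *Pdcd1lg2* at 13.1, 16.6 and 11.7 CPM, and *Lgals9* at 108, 127 and 144 CPM. Every one of these values lay above all libraries of the cells with neither gene. Cluster 7, with *Lgals9* at a mean of 207 CPM, held 92 of the 330 *Cxcl9* cDC1s and 327 of the 5281 cells with neither gene. Cluster 10 was at 81.9 CPM of *Lgals9*, and the part of this mix of clusters was not tested. The log2 fold changes were 3.03 for *Cd274*, 2.61 for *Pdcd1lg2* and 1.02 for *Lgals9* (edgeR, Benjamini-Hochberg adjusted p = 7.66e-10, 2.26e-06 and 6.06e-06, higher in 3 of 3 libraries), and that of *Pdcd1lg2* was 1.96 with groups set at 1 UMI. The number of all genes called was 1052 and depended on the libraries, being 538 without the *sGsn-/-* and 612 without the WT library, while these members kept their calls in every alternative run.

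*Cd200*, *Havcr2*, *Pvr* and *Vsir* were not called in *Cxcl9* cDC1s. *Cd200* had 10.4, 17.2 and 14.6 CPM, on both sides of the cells with neither gene (log2 fold change 0.36; edgeR, Benjamini-Hochberg adjusted p = 0.312, higher in 2 of 3 libraries). *Havcr2* had 138, 155 and 124 CPM against 159, 167 and 141 CPM, with overlapping ranges (log2 fold change −0.11; edgeR, Benjamini-Hochberg adjusted p = 0.568, lower in 3 of 3 libraries). For *Pvr* the log2 fold change was 0.03, and for *Vsir* −0.24 with no overlap between libraries (edgeR, Benjamini-Hochberg adjusted p = 0.909 and 0.188; *Pvr* higher in 2 of 3 and *Vsir* lower in 3 of 3 libraries). The 8 macrophage markers summed to 141, 75.2 and 135 CPM in this group, *Fcgr1* being the most abundant at a mean of 47.3 CPM and none at 0, and their part in these levels was not tested.

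Set directly against each other, *Ccr7* cDC1s were higher than *Cxcl9* cDC1s in *Cd274*, *Pdcd1lg2*, *Cd200*, *Pvr* and *Nectin2*, 5 of 8 members where 21.6% of the 6900 genes tested were called higher, and lower in *Lgals9* and *Havcr2*, 2 of 8 where 23.2% were called lower. The count of lower members is thus near the background of the main setting, and *Nectin2* again passed the filter on low counts only through the *Ccr7* group. That background, 1598 genes called lower, depended on the setting. It was 1047 of 6789 genes without the *sGsn-/-* library and 944 of 7901 with groups set at 1 UMI. With DESeq2 it was 1022 of 10296, and after thinning 810 of 3551. The median log2 fold change was 1.91 over the members and −0.05 over all genes, and without *Nectin2* 4 of 7 members were higher and the median was 1.60. *Cd274* and *Pdcd1lg2* differed by a log2 fold change of 2.21 and 3.24, with no overlap between libraries (edgeR, Benjamini-Hochberg adjusted p = 1.57e-09 and 3.69e-09, higher in 3 of 3 libraries). The groups differ in make-up, with 147 of 154 *Ccr7* cDC1s in cluster 8 but only 67 of 330 *Cxcl9* cDC1s in cluster 10. Between clusters 8 and 10 the means were 307 and 262 CPM for *Cd274* and 95.8 and 60.2 CPM for *Pdcd1lg2*. These ranges overlapped, and the part of the make-up in the fold changes was not tested. *Cd200* differed by 4.49 and *Pvr* by 1.60 (edgeR, Benjamini-Hochberg adjusted p = 8.87e-13 and 1.59e-07, higher in 3 of 3 libraries). The galectin-9 gene *Lgals9* and the TIM-3 gene *Havcr2* were lower by log2 fold changes of −1.96 and −1.81 (edgeR, Benjamini-Hochberg adjusted p = 3.87e-07 and 2.53e-07, lower in 3 of 3 libraries), and that of *Havcr2* was −0.59 with groups set at 1 UMI. Cluster 7, the highest in *Lgals9*, held 92 of the 330 *Cxcl9* cDC1s and 1 of the 154 *Ccr7* cDC1s, and its part was not tested. *Vsir* was not called (log2 fold change −0.36; edgeR, Benjamini-Hochberg adjusted p = 0.261, lower in 2 of 3 libraries). *Nectin2* had 21 against 3 UMIs, a ratio of 19.96 in CPM with a counting interval of 5.96 to 105.

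The 41 cDC1s with both *Ccr7* and *Cxcl9*, described only, were close to the *Ccr7* cDC1s in *Cd274*, with 287, 389.7 and 293 CPM in the WT, *sGsn-/-* and *sGsn-/- Clec9a-/-* libraries. In *Cd200* they lay between both groups, at 115, 144 and 85.4 CPM, below every library of the *Ccr7* cDC1s and above every library of the *Cxcl9* cDC1s. *Havcr2* was also in between in most libraries, at 83.8, 84.5 and 134 CPM, as was *Lgals9* at 75.0, 84.5 and 97.6 CPM. The *sGsn-/- Clec9a-/-* value rests on 8 cells.

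**Figure D2:**
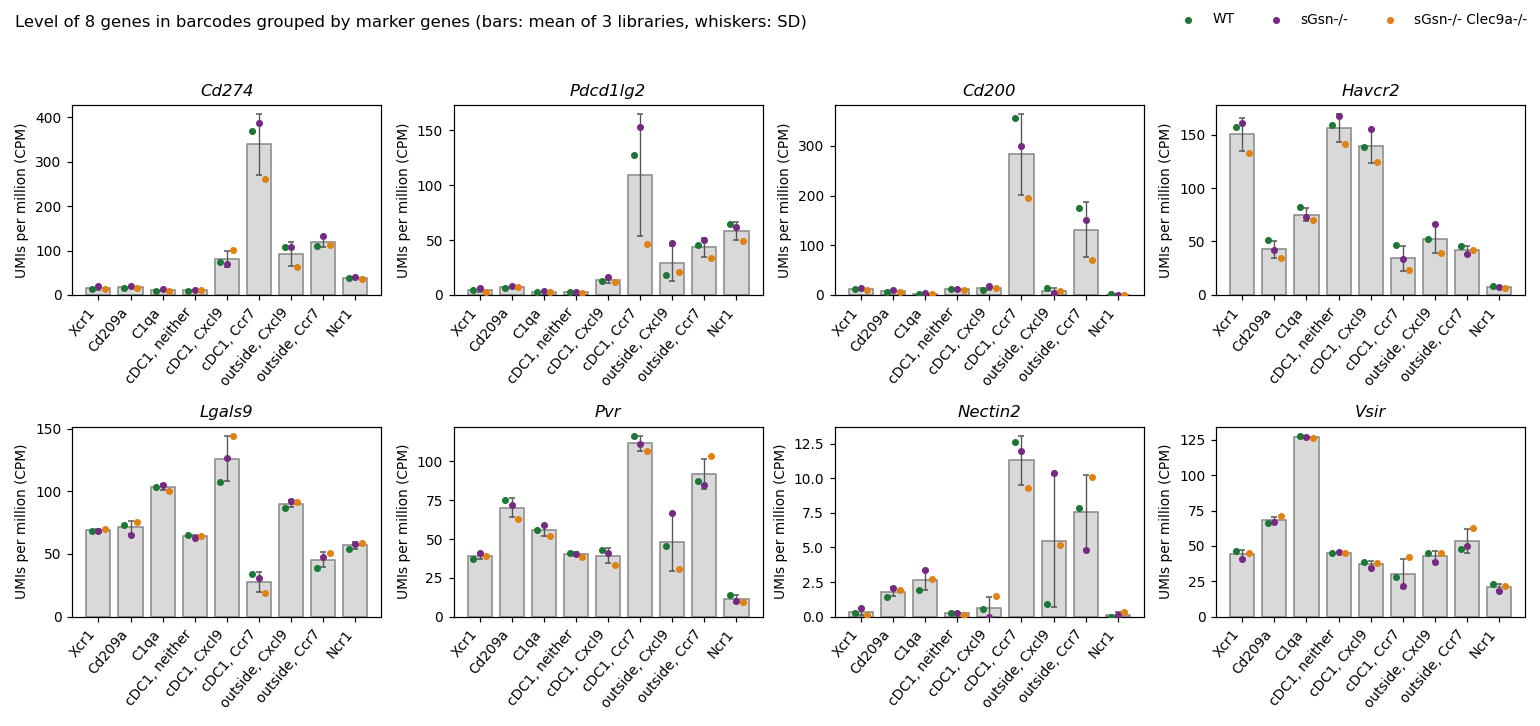
Levels of the 8 genes (y axis, CPM) in barcodes grouped by marker genes (x axis), with bars for the mean of 3 libraries, whiskers for the SD and points for each library. *Cd274* reaches 260.4 to 388 CPM in *Ccr7* cDC1s and 69.5 to 102 CPM in *Cxcl9* cDC1s, and *Vsir* 126 to 128 CPM in *C1qa* barcodes.

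Populations were compared by 1 marker gene each, over all barcodes with at least 200 genes and a mitochondrial share up to the library mean plus 2 SD. *Xcr1* barcodes (3835, the cDC1 marker), *Cd209a* barcodes (5158, cDC2) and *C1qa* barcodes (3301, macrophages) had at least 3 UMIs of that gene and fewer than 3 of the other markers. The 7 cDC1 markers summed to 3888, 3642 and 3782 CPM in the WT, *sGsn-/-* and *sGsn-/- Clec9a-/-* libraries of the *Xcr1* barcodes and to at most 565 CPM in any library of the others, and the 8 macrophage markers to at least 9567 CPM in the *C1qa* barcodes and at most 373 CPM in the others. The 7 cDC2 markers separated less, with 2346, 2349.9 and 2347 CPM in the *Cd209a* barcodes, 1399, 1496 and 1382 CPM in the *C1qa* barcodes and at most 389 CPM in the *Xcr1* barcodes. The most abundant of them in the *Cd209a* barcodes was *Cd209a* itself, at a mean of 829 CPM. That gene defined this group and was kept below 3 UMIs in the others. Much of the difference from the *C1qa* barcodes thus follows from the selection and does not show that these barcodes are cDC2s. The sort had gated on cells without CD88, which macrophages carry. The 3 comparisons share these populations and used the same test as above.

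*Xcr1* barcodes carried more *Havcr2* and *Cd200* and less *Pvr*, *Vsir* and *Pdcd1lg2* than *Cd209a* barcodes. Thus 2 of 8 members were called higher, where 26.6% of the 12340 genes tested were, and 4 of 8 lower, where 27.6% were, and the first of these counts is near the background. The median log2 fold change was −0.37 over the members and −0.00 over all genes tested. *Nectin2* reached the limit of the filter on low counts in 3 libraries of the *Cd209a* barcodes and 1 of the *Xcr1* barcodes, which favours a difference, and without it 3 of 7 were lower and the median was −0.16. It had 0.302, 0.606 and 0.151 CPM in the *Xcr1* barcodes and 1.43, 2.05 and 1.93 CPM in the *Cd209a* barcodes. The ligand genes *Cd274* and *Lgals9* were not called, with log2 fold changes of −0.16 and −0.01 (edgeR, Benjamini-Hochberg adjusted p = 0.374 and 0.956, lower in 3 and 2 of 3 libraries). *Xcr1* barcodes included 2531 of the 5806 cDC1s, but only 48 of 255 cells in cluster 8 and 19 of 76 in cluster 10. Over all cDC1s *Cd274* was at 23.1, 34.1 and 19.8 CPM (WT, *sGsn-/-* and *sGsn-/- Clec9a-/-* libraries). The *Cd209a* barcodes had less in each library, 16.7, 21.0 and 15.6 CPM. *Pdcd1lg2* was at 6.30, 10.3 and 3.26 CPM over all cDC1s against 6.72, 8.38 and 7.07 CPM, and neither difference was tested. *Pvr* had 37.3, 41.3 and 39.0 CPM in the WT, *sGsn-/-* and *sGsn-/- Clec9a-/-* libraries of the *Xcr1* barcodes and 75.3, 72.1 and 63.2 CPM in those of the *Cd209a* barcodes. *Havcr2* had 157, 161 and 133 CPM against 51.0, 42.3 and 34.9 CPM, so that for both genes every library of 1 population lay apart from the other. The log2 fold changes were −0.79 for *Pvr*, −0.58 for *Vsir*, 0.78 for *Cd200* and 1.85 for *Havcr2* (edgeR, Benjamini-Hochberg adjusted p = 1.12e-05, 0.000106, 0.00302 and 1.14e-06, same direction in 3 of 3 libraries each). The call of *Cd200* was lost with groups set at 1 UMI (0.59, adjusted p = 0.0551, the highest over its alternatives, with 2.86e-05 the lowest), and its log2 fold change was 1.37 without barcodes with NK, T or pDC markers. The 5 pDC markers summed to 327, 404 and 345 CPM in the *Xcr1* and 702, 1016 and 751 CPM in the *Cd209a* barcodes. For the 4 pre-cDC markers the sums were 189, 186 and 191 against 324, 399.99 and 312 CPM. The part of these markers was not tested further. *Pdcd1lg2* was lower by a log2 fold change of −0.68 (edgeR, Benjamini-Hochberg adjusted p = 0.0185, lower in 3 of 3 libraries), a call that was lost without the WT library (adjusted p = 0.0525) or the *sGsn-/- Clec9a-/-* library (0.0736), within a range of 0.00123 to 0.113 over its alternatives.

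Against *C1qa* barcodes, *Xcr1* barcodes were higher in *Cd274*, *Cd200* and *Havcr2* and lower in *Lgals9*, *Pvr* and *Vsir*. That is 3 of 8 members called higher, where 29.7% of the 12429 genes tested were, and 4 of 8 lower, where 30% were, with a median log2 fold change of 0.08 over the members and 0.02 over all genes. *Nectin2* again passed the filter through the *C1qa* barcodes, which favours a difference, and without it 3 of 7 were higher, 3 lower, and the median was 0.60. *Vsir* was the clearest of the genes that mark macrophages here, with 46.2, 40.7 and 45.0 CPM in the WT, *sGsn-/-* and *sGsn-/- Clec9a-/-* libraries of the *Xcr1* barcodes and 128, 127 and 126 CPM in those of the *C1qa* barcodes. *Lgals9* had 68.0, 68.4 and 69.8 CPM against 104, 105 and 100.5 CPM. Both genes were apart in all libraries, at log2 fold changes of −1.47 and −0.53 (edgeR, Benjamini-Hochberg adjusted p = 2.9e-08 and 1.18e-05, lower in 3 of 3 libraries). *Cd200* and *Havcr2* were higher by log2 fold changes of 2.40 and 1.06 and *Cd274* by 0.65 (edgeR, Benjamini-Hochberg adjusted p = 8.07e-05, 1.99e-06 and 0.00532, higher in 3 of 3 libraries). *Pvr* was lower by −0.45 on the log2 scale (edgeR, Benjamini-Hochberg adjusted p = 0.000223, lower in 3 of 3 libraries), and *Nectin2* had 1.91, 3.35 and 2.73 CPM in the *C1qa* barcodes. *Pdcd1lg2* missed the threshold (log2 fold change 0.60; edgeR, Benjamini-Hochberg adjusted p = 0.0642, higher in 3 of 3 libraries), and passed it with the library as replicate block (0.56, adjusted p = 0.00925) and without the *sGsn-/- Clec9a-/-* library (adjusted p = 0.0376), while at 1 UMI the log2 fold change was only 0.06 (adjusted p = 0.867), the range over its alternatives being 0.00925 to 0.867.

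Between the *Cd209a* and *C1qa* barcodes, *Cd274*, *Pdcd1lg2*, *Cd200* and *Pvr* were higher in the *Cd209a* barcodes and *Havcr2*, *Lgals9* and *Vsir* in the *C1qa* barcodes. Thus 4 of 8 members were called higher, where 19.8% of the 12219 genes tested were, and 3 of 8 lower, where 20.4% were, with medians of −0.09 over the members and −0.00 over all genes. *Pdcd1lg2* had 6.72, 8.38 and 7.07 CPM in the WT, *sGsn-/-* and *sGsn-/- Clec9a-/-* libraries of the *Cd209a* barcodes and 2.69, 3.92 and 2.73 CPM in those of the *C1qa* barcodes, and *Cd274* 16.7, 21.0 and 15.6 against 8.83, 12.4 and 9.79 CPM. Neither gene overlapped between the populations, and the log2 fold changes were 1.28 and 0.81 (edgeR, Benjamini-Hochberg adjusted p = 0.000249 and 0.00148, higher in 3 of 3 libraries), that of *Pdcd1lg2* being 0.69 with groups set at 1 UMI. *Cd200* and *Pvr* followed with 1.61 and 0.34 (edgeR, Benjamini-Hochberg adjusted p = 0.00798 and 0.00373, higher in 3 of 3 libraries). *Havcr2*, *Lgals9* and *Vsir* had log2 fold changes of −0.80, −0.53 and −0.89 (edgeR, Benjamini-Hochberg adjusted p = 0.000737, 0.000354 and 3.08e-06, lower in 3 of 3 libraries). *Nectin2* was not called (log2 fold change −0.54; edgeR, Benjamini-Hochberg adjusted p = 0.119, lower in 3 of 3 libraries), but was called with the library as replicate block (−0.52, adjusted p = 0.0339), against a highest value of 0.31 over its alternatives. The call of *Cd200* was lost when barcodes with NK, T or pDC markers were left out (1.09, adjusted p = 0.0559, the highest over its alternatives; lowest 2.98e-05), and the number of all genes called, 4910, was 3199 without the *sGsn-/-* library. The 5 pDC markers summed to 702, 1016 and 751 CPM in the *Cd209a* and 379.6, 369 and 368 CPM in the *C1qa* barcodes (*Bst2* the most abundant, at 529 and 265 CPM), and the 6 NK markers to 224, 361 and 370.1 against 122, 154 and 211 CPM (*Klrk1* at 126 and *Gzma* at 68.3 CPM), with none at 0. The 4 pre-cDC markers summed to 324, 399.99 and 312 CPM in the *Cd209a* and 46.2, 39.4 and 53.3 CPM in the *C1qa* barcodes. *Cd7* at 180 and *Flt3* at 19.1 CPM were the most abundant of them, with none at 0. Without barcodes that had at least 3 UMIs of *Ncr1*, *Cd3e* or *Siglech* the log2 fold changes were 0.84 for *Cd274* and 1.47 for *Pdcd1lg2*. The part of the pDC, NK and pre-cDC markers was not tested further.

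Barcodes outside the table with any UMI of *Cd209a* (8580) or *C1qa* (5931) gave the same order without a minimum of 3 UMIs. *Vsir* had 79.5 ± 6.45 CPM (SD, n = 3) in the first and 109 ± 4.80 CPM in the second, and *Lgals9* 79.6 ± 5.91 and 95.2 ± 2.29 CPM. *Havcr2* had 52.0 ± 6.06 and 69.8 ± 7.03 CPM. For these genes the means of the *C1qa* set were the higher ones. *Cd200*, at 7.60 ± 2.62 and 4.74 ± 1.58 CPM, *Pdcd1lg2*, at 7.71 ± 1.04 and 5.49 ± 1.20 CPM, and *Cd274*, at 16.8 ± 2.37 and 14.5 ± 3.09 CPM, had the higher means in the *Cd209a* set, and the ranges of both sets overlapped for *Cd200* and *Cd274*. Barcodes with UMIs of both genes are in both sets, which were therefore not tested.

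*Cd274* and *Pdcd1lg2* were also higher with *Ccr7* or *Cxcl9* in each library outside the table. There, 349 barcodes with fewer than 3 UMIs of *Xcr1* and *C1qa* had *Ccr7*, 184 had *Cxcl9* and 17130 had neither, by the same minimum of 3 UMIs. *Cd274* was at 110.3, 132 and 113 CPM in the *Ccr7* barcodes in the WT, *sGsn-/-* and *sGsn-/- Clec9a-/-* libraries, at 108, 107 and 61.8 CPM in the *Cxcl9* barcodes and at 17.1, 25.9 and 19.6 CPM in those with neither. The *Ccr7* barcodes lay above the *Cxcl9* barcodes in every library, but by little in the WT library. *Pdcd1lg2* was at 45.9, 50.2 and 33.7 CPM, at 17.9, 47.5 and 20.6 CPM and at 12.7, 22.8 and 13.9 CPM, the *Cxcl9* barcodes being above those with neither gene within each library, with overlapping ranges and no test. *Cd200* was at 175, 150.2 and 69.6 CPM, at 14.3, 4.45 and 7.21 CPM and at 5.49, 6.30 and 4.81 CPM in the same groups, and so was high with *Ccr7* alone, as among the cDC1s. *Pvr* had 92.0 ± 9.89, 47.8 ± 18.1 and 55.6 ± 8.14 CPM. *Lgals9* had its highest mean in the *Cxcl9* barcodes, 90.2 ± 2.84 CPM against 45.6 ± 6.04 CPM with *Ccr7* and 68.0 ± 4.57 CPM with neither.

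*Havcr2*, by contrast, had 41.9 ± 3.41 CPM in the *Ccr7* barcodes outside the table and 49.8 ± 7.80 CPM in those with neither, and the per-library log2 ratios (with 1 CPM added) averaged −0.23 ± 0.163 there and −2.20 ± 0.405 in the cDC1s. For *Cd274* the same ratios averaged 2.47 ± 0.156 outside and 4.91 ± 0.340 in the cDC1s, and for *Cd200* 4.25 ± 0.588 and 4.50 ± 0.368. The ratios of *Cd274* and *Havcr2* did not overlap between inside and outside, those of *Cd200* did, and the difference was not tested. The labels do not give the cell type of these barcodes. Their 7 cDC2 markers summed to 1194, 1140 and 1568 CPM in the *Ccr7* barcodes, with *Mgl2* the most abundant at a mean of 377 CPM and none at 0, and the 8 macrophage markers to 192, 376 and 695 CPM, with *Apoe* the most abundant at 218 CPM and none at 0. The barcodes with neither gene held all 6 NK markers at 903, 2272 and 1554 CPM summed, with *Gzma* the most abundant at 866 CPM and none at 0, against 368, 772 and 599.9 CPM in the *Ccr7* barcodes. *Ncr1* barcodes had *Cd274* at 37.8 CPM and *Havcr2* at 7.42 CPM, and the part of NK cells in these ratios was not tested.

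Between genotypes *Cd274*, *Pdcd1lg2* and *Cd200* differed over all cDC1s, and how much depended on the weight of the clusters. Over all cDC1s *Cd274* was at 23.1 CPM in the WT library (exact Poisson 95% interval 21.5 to 24.8), 34.1 CPM in the *sGsn-/-* library (31.8 to 36.5) and 19.8 CPM in the *sGsn-/- Clec9a-/-* library (18.0 to 21.8). *Pdcd1lg2* was at 6.30 (5.47 to 7.23), 10.3 (9.02 to 11.6) and 3.26 CPM (2.54 to 4.12), and *Cd200* at 19.8 (18.3 to 21.4), 24.1 (22.2 to 26.2) and 12.9 CPM (11.4 to 14.5). All intervals cover counting error only, and with 1 library per genotype the differences have no replicate check. The *sGsn-/-* library was the highest and the *sGsn-/- Clec9a-/-* library the lowest for each of these ligands, and with the 12 clusters weighted equally they were at 58.3, 64.4 and 56.8 CPM (*Cd274*), 16.4, 19.6 and 7.97 CPM (*Pdcd1lg2*) and 37.8, 32.3 and 16.9 CPM (*Cd200*). The last order turned on 3 UMIs in the WT cells of the shallow cluster 11, without which *Cd200* was at 34.9, 35.2 and 18.4 CPM. The number of cDC1s in cluster 8 followed the same order, with 84, 114 and 57 cells. Without clusters 8 and 10, a step chosen after the values had been seen, *Cd274* was at 11.2, 11.6 and 10.6 CPM, *Pdcd1lg2* at 2.30, 2.59 and 1.69 CPM and *Cd200* at 11.6, 11.2 and 10.6 CPM.

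*Lgals9* was at 67.0, 66.9 and 68.9 CPM in the WT, *sGsn-/-* and *sGsn-/- Clec9a-/-* cDC1s and *Vsir* at 44.0, 43.3 and 44.6 CPM, with overlapping intervals throughout. *Pvr* was at 43.2, 43.8 and 39.2 CPM, and *Havcr2* at 155, 160.4 and 139 CPM (150.8 to 159, 155 to 166 and 134 to 144). The *sGsn-/- Clec9a-/-* library was the lowest for *Havcr2*, outside the intervals of the other libraries. With the 12 clusters weighted equally *Havcr2* was at 155, 167 and 154 CPM, *Pvr* at 47.3, 58.6 and 45.7 CPM and *Vsir* at 38.7, 48.8 and 47.1 CPM. These values rest on few UMIs of cluster 11, and without it they were 142, 147 and 127 CPM for *Havcr2*, 49.5, 46.5 and 40.5 CPM for *Pvr* and 40.1, 43.9 and 42.1 CPM for *Vsir*, a step chosen after the values had been seen. *Nectin2* had only 26, 24 and 8 UMIs, equal to 0.796 (0.520 to 1.17), 1.02 (0.653 to 1.52) and 0.373 CPM (0.161 to 0.734).

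Inside cluster 8 itself the *sGsn-/- Clec9a-/-* library also stood apart. *Cd274* had intervals of 293 to 364 CPM in the WT, 339 to 407 in the *sGsn-/-* and 184 to 268 CPM in the *sGsn-/- Clec9a-/-* library, and *Cd200* of 240.4 to 305, 216 to 271 and 83.8 to 143 CPM. *Pdcd1lg2* had 93.7 to 136, 105 to 144 and 33.0 to 73.9 CPM. *Havcr2* went the other way, at 63.0 CPM (48.6 to 80.3), 60.6 CPM (47.8 to 75.8) and 128 CPM (99.1 to 163). In the *Ccr7* cDC1s, 147 of 154 of which belong to this cluster, the same library was the lowest for *Havcr2*, at 46.4 (31.9 to 65.1), 33.5 (22.3 to 48.4) and 23.2 CPM (7.55 to 54.3, from 5 UMIs), with overlapping intervals. *Cd274* had intervals of 325 to 416, 347 to 432 and 197 to 338 CPM in these *Ccr7* cDC1s, overlapping between the WT and *sGsn-/- Clec9a-/-* libraries. For *Cd200* those of the *sGsn-/-* (263 to 339 CPM) and *sGsn-/- Clec9a-/-* libraries (141 to 264 CPM) overlapped. Only for *Pdcd1lg2*, at 103 to 157, 128 to 182 and 22.3 to 85.5 CPM, was the last library apart from both others. In cluster 8 *Pvr*, at 112, 109 and 89.3 CPM, and *Lgals9*, at 46.5, 41.7 and 34.9 CPM, had overlapping intervals. The 5 genes of the *Ccr7* state (*Ccr7*, *Fscn1*, *Ccl22*, *Il12b* and *Socs2*) summed to 8383, 6825 and 4054 CPM in the same cells, with *Ccr7* the most abundant at a mean of 2001 CPM and none at 0, and the 8 macrophage markers to 575, 56.7 and 71.8 CPM, with *Apoe* the most abundant at 103 CPM and none at 0. Their part in these values was not tested.

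In cluster 10 the *Cd274* intervals overlapped, at 181 to 298, 193 to 307 and 248 to 378 CPM in the WT, *sGsn-/-* and *sGsn-/- Clec9a-/-* libraries, and the last of these libraries had the highest value there. *Pdcd1lg2* had 35.1 to 96.5, 60.0 to 130.4 and 13.8 to 57.2 CPM, so that only the *sGsn-/-* and *sGsn-/- Clec9a-/-* libraries were apart. The 14 *Cd200* UMIs of the *sGsn-/-* library were more than the 4 and 0 of the others. In that library the 7 cDC2 markers summed to 677 CPM in cluster 10, against 195 and 151 CPM in the WT and *sGsn-/- Clec9a-/-* libraries, with *Cd209a* the most abundant at a mean of 210.5 CPM and none at 0, and their part was not tested.

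The other genes of these pathways, a list of 32 partners and further inhibitory ligands and receptors, moved in both directions. In *Ccr7* cDC1s against those with neither gene, 10 of the 22 that could be tested were called higher and 7 lower, where 19.8% and 21.6% of all genes were, with a median log2 fold change of 0.48. Of the 19 over the limit of the filter on low counts in both groups, 9 were higher and 7 lower. *Cd80*, the ligand of CTLA-4 and CD28, was highest in this comparison at 219 ± 18.8 against 15.1 ± 0.860 CPM (log2 fold change 3.93), followed by *Pilra* (2.73) and the inhibitory receptor gene *Lilrb4a* (2.15), and *Ctla4* (−2.52), *Cd300a* (−2.36) and *Cd24a* (−1.83) were lowest (edgeR, Benjamini-Hochberg adjusted p between 1.2e-17 and 0.016). *Pilra* rested on 11 UMIs of the WT library and was at 0 in the other libraries of the *Ccr7* group, so its direction held in 1 of 3 libraries, and the others named held theirs in 3 of 3. In *Cxcl9* cDC1s, 7 of 23 were called higher and 0 lower, where 7.44% and 2.32% of all genes were, with a median of 0.22, *Nectin4* (2.30), *Cd80* (1.51) and *Lilrb4a* (1.04) being the largest and *Cd47* (0.30), the gene of the ligand of SIRPα, *Fgl2* (0.31) and *Lgals3* (0.37) the smallest called (edgeR, Benjamini-Hochberg adjusted p between 4.26e-07 and 0.0161). Of the 20 over the limit of the filter in both the *Cxcl9* cDC1s and the cells with neither gene, 6 were higher and 0 lower. Between *Ccr7* and *Cxcl9* cDC1s, 6 of 17 were higher and 7 lower, where 21.6% and 23.2% of all genes were, with a median of −0.12. Of the 12 over the limit of the filter on low counts in both groups, 6 were higher and 3 lower, with a median of 0.34. *Cd80* (2.47), *Nectin1* (1.74) and *Lilrb4a* (1.18) stood at 1 end and *Cd300a* (−2.45), *Ctla4* (−2.07) and *Cd200r1* (−1.99), the gene of the CD200 receptor, at the other (edgeR, Benjamini-Hochberg adjusted p between 8.17e-11 and 0.0194). *Ctla4*, *Cd300a* and *Cd226* passed the filter on low counts here through the *Cxcl9* group, as did *Nectin4* above, which favours a difference. *Cd200r1* held its direction in 2 of 3 libraries, and the other genes named for the *Cxcl9* cDC1s in 3 of 3.

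Between populations, *Xcr1* barcodes were marked by the inhibitory receptor genes *Btla* and *Ctla4*. Against *Cd209a* barcodes 5 of 25 were higher and 11 lower, where 26.6% and 27.6% of all genes were, with *Ctla4* (log2 fold change 3.09), *Btla* (2.27) and *Cd24a* (1.82) highest and *Pilra* (−2.95), *Lair1* (−2.59) and *Lilrb4a* (−2.50) lowest. Against *C1qa* barcodes 9 of 26 were higher and 11 lower, where 29.7% and 30% were, with *Btla* (4.24), *Ctla4* (4.04) and *Cd24a* (2.67) highest and *Cd276* (−6.15), *Pilra* (−4.61) and *Lair1* (−3.60) lowest. *Btla* was at 124.5 ± 9.21 CPM in *Xcr1*, 26.7 ± 3.86 CPM in *Cd209a* and 6.62 ± 1.63 CPM in *C1qa* barcodes. In *Cd209a* against *C1qa* barcodes 11 of 26 were higher and 6 lower, where 19.8% and 20.4% were, with *Lag3* (2.52), *Btla* (1.97) and *Cd300a* (1.83) highest and *Cd276* (−4.30), *Pilra* (−1.66) and *Lair1* (−1.01) lowest. The adjusted p of the genes named lay between 3.54e-10 and 0.000188 (edgeR, Benjamini-Hochberg), and each direction held in 3 of 3 libraries. *Cd276* passed the filter on low counts through the *C1qa* barcodes alone, which favours a difference in both comparisons.

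Ligands of stimulatory receptors (10 genes, 9 of them in the matrices) were read in the same way beside the inhibitory ones. In *Ccr7* cDC1s against those with neither gene 6 of 8 tested were called higher and 1 lower, where 19.8% and 21.6% of all genes were. However, 4 of the 8 passed the filter on low counts through 1 group only, and of the other 4, 3 were higher and 1 lower, with a median log2 fold change of 1.89, next to 1.60 for the 7 inhibitory members without *Nectin2*. In *Cxcl9* cDC1s 3 of 5 were higher and 1 lower, where 7.44% and 2.32% were, and between both groups 5 of 7 were higher with *Ccr7* and 1 lower, where 21.6% and 23.2% were, and 3 of these 5 passed the filter only through the *Ccr7* group. *Xcr1* barcodes had 1 of 7 higher and 5 lower than *Cd209a* barcodes (26.6% and 27.6% of all genes) and 3 of 6 higher and 2 lower than *C1qa* barcodes (29.7% and 30%), and *Cd209a* barcodes had 5 of 7 higher and 1 lower than *C1qa* barcodes (19.8% and 20.4%). Without the genes that passed the filter through 1 group, these were 1 of 5 higher and 3 lower, 2 of 4 higher and 1 lower, and 3 of 5 higher and 1 lower. These calls are those of edgeR with Benjamini-Hochberg adjustment over all genes tested.

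Across the 12 clusters each member was set beside the 7554 genes with at least 500 UMIs, by Pearson's r of log2(CPM + 1) averaged over the libraries. The clusters share libraries and differ in depth, so r is a description. *Cd274* was most like *Nfkbie* (r = 0.933), *Mmp25* (0.914) and *Malt1* (0.912), and these held within single libraries at 0.804 or more. *Pdcd1lg2* was most like *Tapbpl* (0.922), *Grb2* (0.913) and *Gnb4* (0.912). In single libraries these had 0.544 to 0.775, 0.658 to 0.895 and 0.778 to 0.957. *Lgals9* was most like the interferon-induced genes *Slfn5* (0.926), *Eif2ak2* (0.9003) and *Parp12* (0.890). *Cd200* was most like *Tspan3* (0.970), *Hmg20b* (0.966) and *Zfand6* (0.964), of which *Hmg20b* held in single libraries (0.868 to 0.884) and *Tspan3* did not (0.340, 0.940 and 0.0778 in the WT, *sGsn-/-* and *sGsn-/- Clec9a-/-* libraries), nor did *Zfand6* in the WT library (0.197).

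*Pvr* was most like *Ptger4* (r = 0.933), *Map3k14* (0.925) and *Cytip* (0.916), of which *Ptger4* had 0.278 and *Map3k14* 0.529 in the WT library. *Havcr2* was most like *Slc9a9* (0.923), *Ilvbl* (0.916) and *Acvrl1* (0.904), and *Vsir* was most like *Glud1* (0.964), *Arrb1* (0.945) and *Sgpp1* (0.945), the last pair with 0.526 to 0.713 in single libraries. *Nectin2* had fewer than the 100 UMIs needed for this measure. Among the members themselves *Cd274* and *Pdcd1lg2* had r = 0.823, *Pdcd1lg2* and *Vsir* −0.855, and *Havcr2* and *Vsir* 0.595, while *Lgals9* had values between −0.507 and 0.0742 with the others.

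RefSeq promoter sequences (GRCm38.p6) were matched for 7 of the 8 members, *Pvr* being the exception. Over the 250 bases before each start, 4 sets of letters were searched on both strands, chosen after the levels had been seen: GAAA, any 2 bases and GAAA (an interferon response element), TTC, any 3 bases and GAA (GAS), GGG, any 3 bases and TTCC (κB), and TGA, any base and TCA (AP-1), which occur in 2.98%, 7.02%, 4.65% and 6.75% of 32851 promoter windows of this length. The promoters of *Lgals9*, the gene that was high in cluster 7 and beside interferon-induced genes, and of *Cd274* and *Pdcd1lg2*, neighbours that were high in the same clusters, are shown 5′ to 3′ on the strand of the gene. Capitals mark the match, at bases 196 to 205 of the *Lgals9* window (chr11:78984925-78985174, − strand), where the interferon response letters lie on the other strand. In the windows of *Cd274* (chr19:29367188-29367437, + strand) and *Pdcd1lg2* (chr19:29410669-29410918, + strand) none of these letters was found, which says nothing beyond these windows or about other forms of the same elements within them.
Lgals9: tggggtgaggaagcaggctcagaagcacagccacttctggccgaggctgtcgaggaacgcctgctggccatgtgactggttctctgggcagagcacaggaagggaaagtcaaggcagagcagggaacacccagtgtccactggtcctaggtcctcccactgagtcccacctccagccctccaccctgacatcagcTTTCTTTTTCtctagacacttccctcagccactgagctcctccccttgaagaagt
Cd274: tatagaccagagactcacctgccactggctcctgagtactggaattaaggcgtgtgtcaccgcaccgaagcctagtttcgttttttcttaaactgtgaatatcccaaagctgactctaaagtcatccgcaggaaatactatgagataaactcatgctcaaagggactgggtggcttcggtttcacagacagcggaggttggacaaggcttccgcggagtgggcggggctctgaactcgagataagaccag
Pdcd1lg2: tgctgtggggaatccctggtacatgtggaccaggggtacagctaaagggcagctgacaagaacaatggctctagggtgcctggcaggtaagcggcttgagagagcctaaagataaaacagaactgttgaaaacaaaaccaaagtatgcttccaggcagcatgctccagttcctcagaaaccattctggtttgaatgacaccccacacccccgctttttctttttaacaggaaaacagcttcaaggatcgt
*Havcr2* had the AP-1 letters at bases 51 to 57 of its window, and *Cd200*, *Nectin2* and *Vsir* had no match. A match of letters is a description of the sequence, and no binding was measured.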

How the data were processed

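Sorted tumour pre-cDCs, cDC1s and cDC2s were measured in 3 droplet libraries, 1 per genotype. The files deposited by the authors are raw UMI counts, made with Cell Ranger 6.0.1 on mm10, and a table of 5806 cDC1s with library, cluster and UMI count, made with Seurat 4.0.0 per the submitters' processing notes. In 1247 cells the UMI count of the table differed from the matrix, and the matrix was used. The 3 other columns of the table (gene number and both UMAP coordinates) were not used.

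Counts were summed per library and group and compared with edgeR 4.0.16 in R 4.3.3 (TMM factors, filterByExpr, quasi-likelihood F-test, Benjamini-Hochberg over all genes tested, threshold 0.05). Python 3.11.15 with NumPy 2.4.6, SciPy 1.17.1 and pandas 2.3.3 did the rest, and matplotlib 3.10.9 the figures. Barcodes needed at least 200 genes and a mitochondrial share up to 18.2%, 18.8% and 15.2% in the WT, *sGsn-/-* and *sGsn-/- Clec9a-/-* libraries, which 12130, 7843 and 8971 passed. The cDC1s were those of the table. Intervals of shares (Clopper-Pearson) and of CPM (Poisson) are exact, at 95%, and cover the error of counting alone. The test was run on simulated counts without genotype differences or pairing within a library, so this check does not cover these features of the data. Of the genes called there, 2.76% to 6.81% by comparison had been left unchanged, at the threshold of 0.05.

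The members and lists were chosen with earlier results of these data known. Named were all 8 members, the 3 largest and 3 smallest called log2 fold changes among other checkpoint genes in each comparison, the 3 genes most like each member with at least 100 UMIs, and the markers of the groups. Clusters 7, 8 and 10 were carried through the alternatives, *Cd3e* and *Siglech* barcodes added as further populations, and lists counted without genes that passed the filter on low counts through 1 group, after the values had been seen. No doublet caller was run. As an alternative, barcodes with at least 3 UMIs of *Ncr1*, *Cd3e* or *Siglech* (of *Cd209a* or *C1qa* too among cDC1s, 203 cells) were left out. Other alternatives were DESeq2 1.42.0, no TMM factors, no filter on low counts, a marker minimum of 1 or 5 UMIs, thinning to 4000 UMIs (2000 for shares), no mitochondrial filter, and each library left out.

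Within 1 library all sums stem from 1 pool of mice and are paired by design. The main fit had no term for this pairing, and the library as replicate block was an alternative. Deviations from the group means correlated at 0.653, 0.464 and 0.729 (WT, *sGsn-/-*, *sGsn-/- Clec9a-/-*) for *Xcr1* against *Cd209a* barcodes, 0.430, 0.408 and 0.642 for *Xcr1* against *C1qa*, 0.720, 0.472 and 0.735 for *Cd209a* against *C1qa*, 0.244, 0.186 and 0.231 for *Ccr7* cDC1s against those with neither gene, 0.618, 0.439 and 0.517 for *Cxcl9* cDC1s against those, and 0.155, 0.132 and 0.0595 for *Ccr7* against *Cxcl9* cDC1s.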

Additional observations from a re-analysis of the deposited data

Results flagged for a closer look

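Outside the comparisons of the report, some members had clear levels in barcodes of other lineages, none of which is in the cDC1 table. *Pdcd1lg2* was at a mean of 58.6 CPM in the 1889 *Ncr1* barcodes, which carry NK cell markers, with 64.6, 61.8 and 49.3 CPM in the WT, *sGsn-/-* and *sGsn-/- Clec9a-/-* libraries. *Cd274* was at a mean of 37.8 CPM in the same barcodes, with 38.4, 39.6 and 35.3 CPM. All 6 values lay above those of the *Xcr1*, *Cd209a* and *C1qa* barcodes. In the 185 *Cd3e* barcodes, which carry T cell markers, *Cd274* had a mean of 38.4 CPM (25.5, 55.0 and 34.6 CPM, from 82 UMIs) and *Pdcd1lg2* of 21.6 CPM (32.4, 17.2 and 15.03 CPM, from 39 UMIs). The *Cd3e* barcodes also held all 6 NK markers, at 2925, 2523 and 3317 CPM summed, with *Nkg7* the most abundant at 1482 CPM and none at 0, and the part of NK cells in these values was not tested. The sort had gated on cells without CD3e, NK1.1 and B220, so barcodes with NK or T cell markers lie outside what it was set to collect.

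*Cd200* was at a mean of 60.9 CPM in the 359 *Siglech* barcodes, which carry pDC markers, with 78.1, 46.4 and 58.1 CPM in the WT, *sGsn-/-* and *sGsn-/- Clec9a-/-* libraries. It was found in 18.9% of them after thinning to 4000 UMIs (exact 95% interval 14.8 to 23.7%, 30.6% before thinning), against 0.116% of the *Ncr1* barcodes, at median depths of 9443 and 10338 UMIs.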

How the results depend on the processing

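Of 532 alternative values of the members' log2 fold changes, 521 stayed on their side of the threshold, 7 lost the call, 4 gained one and no call was reversed. Besides those given in the report, the call of *Pdcd1lg2* for *Xcr1* against *Cd209a* barcodes was lost at a minimum of 5 UMIs (adjusted p = 0.113) and after thinning (0.0522). *Pdcd1lg2* was also called for *Xcr1* against *C1qa* barcodes without the filter on low counts (0.0166, edgeR, Benjamini-Hochberg throughout). The library as replicate block changed the calls of *Pdcd1lg2* (0.56 for *Xcr1* against *C1qa* barcodes) and *Nectin2* (−0.52 for *Cd209a* against *C1qa* barcodes) and no other call of the members. The number of genes called was 4910 for *Cd209a* against *C1qa* barcodes and 3199 to 3946 with 1 library left out. For *Ccr7* cDC1s against those with neither gene it was 4483, 2917 after thinning and 3252 to 4072 with 1 library left out. For *Cxcl9* cDC1s it was 1052, 640 at 1 UMI, 551 after thinning and 538 to 735 with 1 library left out, and of the 250 lower ones 64 to 121 with 1 library left out, 416 with the library as replicate block and 493 without the filter on low counts. For *Ccr7* against *Cxcl9* cDC1s it was 3091, 1677 after thinning and 2187 to 2863 with 1 library left out. Thinning left fewer genes to test, and the cause was not tested otherwise. In cluster 8 the mean of single-cell CPM was 31.7 for *Lgals9* and 131 for *Pvr*, and thinned cells had 124 CPM for *Pvr*, 20.2 for *Nectin2* and 11.8 for *Vsir*. With the 12 clusters weighted equally, the WT, *sGsn-/-* and *sGsn-/- Clec9a-/-* levels were 58.3, 64.4 and 56.8 CPM for *Cd274*, 16.4, 19.6 and 7.97 for *Pdcd1lg2*, 37.8, 32.3 and 16.9 for *Cd200* and 47.3, 58.6 and 45.7 for *Pvr*. They were 155, 167 and 154 CPM for *Havcr2*, 72.5 for *Lgals9* (WT), 1.86 and 1.13 for *Nectin2* (WT, *sGsn-/- Clec9a-/-*) and 38.7 and 48.8 for *Vsir* (WT, *sGsn-/-*), this weighting giving small clusters the weight of large ones by construction. Leaving a library out gave a value of *Nectin2* for *Ccr7* against *Cxcl9* cDC1s in only 1 case (5.20), since it failed the low-count filter in the others. Depth limits *Nectin2*, with 58 UMIs in the cDC1s, and the 154 *Ccr7* cDC1s, of which 26 are from the *sGsn-/- Clec9a-/-* library.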
